A study of Bos taurus with 13 samples.

Results

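The genes *ACE*, *CACNB3*, *SEC16B* and *ADGRE1* were followed through the blood transcriptomes of cows at either extreme of milk cortisol. They were chosen because they were among the genes with the lowest expression in the high group relative to the low group, and they are 4 of the 16095 gene names in the count tables. All 4 passed the filter on low counts, as did 11033 names in all. The cows were of the breed labelled Italian Red Pied (Italian Simmental), lactating and clinically healthy animals of 1 herd that were picked from the upper and lower tails of milk cortisol, and no treatment was given. The tables hold 13 cows with 1 blood sample each: replicates 1 to 7 had high milk cortisol (7 cows), replicates 8 to 13 low (6 cows). Blood was taken into PAXgene tubes, which preserve RNA at sampling, and globin RNA was not depleted. Between 11045599 and 28124575 reads per cow were counted on named genes, so a gene with 0 counts could still be present at up to 3 counts, or 0.107 to 0.272 CPM (reads per gene after every library is scaled to the same size), by counting error alone.

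The products of the 4 genes work in separate systems. *ACE* encodes the angiotensin-converting enzyme, a membrane peptidase that makes angiotensin II from angiotensin I and breaks down bradykinin. It is best known from the endothelium of blood vessels and is also made by monocytes, macrophages and dendritic cells. *CACNB3* encodes a beta subunit of voltage-gated calcium channels, which binds the pore-forming subunit inside the cell and sets how much of it reaches the membrane. *SEC16B* encodes a scaffold of endoplasmic reticulum exit sites, where the COPII coat packs newly made proteins into vesicles. *ADGRE1* encodes an adhesion G protein-coupled receptor of myeloid cells, known in mice as the macrophage antigen F4/80.

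The genes lie on 4 chromosomes of the UMD3.1 build, as the count tables give them. *ACE* is on chromosome 19 from 48447902 to 48467904 (plus strand), and reads were counted on 3736 exonic bases. *CACNB3* is on chromosome 5 from 31116984 to 31126056 (minus strand, 2700 exonic bases). *SEC16B* is on chromosome 16 from 60747108 to 60792164 (minus strand, 3918 exonic bases), and *ADGRE1* is on chromosome 7 from 18767695 to 18834685 (minus strand, 3543 exonic bases). No other named gene overlaps any of them. The closest neighbour is *DDX23*, an RNA helicase gene that ends 875 bases from *CACNB3* on the opposite strand. The option for strand is absent from the table headers, so reads running on from *DDX23* could not be told from reads of *CACNB3*. *DDX23* had between 123 and 170 CPM over the 13 cows, its log2 fold change was -0.06, and its correlation with *CACNB3* within groups was 0.23. Next to *ACE* lie *CYB561*, with a log2 fold change of -0.83 at 0.48 to 2.65 CPM (library size only), and *KCNH6*, with at most 12 counts. Within groups *CYB561* had r = -0.07 with *ACE*. *ADCY6* next to *CACNB3*, *RASAL2* next to *SEC16B* and *VAV1* next to *ADGRE1* had log2 fold changes between -0.14 and 0.06, while *BRINP2* and *OR2Z1* had at most 6 counts in a cow.

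Expression of *ACE* in the high group ran from 3.66 CPM in replicate 3 to 7.46 CPM in replicate 1, with a median of 4.93 CPM. In the low group it ran from 4.21 CPM in replicate 9 to 15.9 CPM in replicate 13, with a median of 11.5 CPM. Thus 5 of the 6 low cows stood above every high cow, and replicate 9 lay inside the range of the high group. The means were 5.24 CPM ± 1.55 (SD, n = 7) and 10.8 CPM ± 4.21 (SD, n = 6), and these values rest on 45 to 375 counts per cow. The fitted log2 fold change (high minus low) was -1.05 (standard error 0.27), which is 2.07-fold higher expression in low cows.

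*CACNB3* was close to uniform in the high group and uneven in the low group. The high cows lay between 3.27 and 5.19 CPM with a median of 3.94 CPM. The low cows were spread from 3.33 CPM in replicate 8 and 3.92 CPM in replicate 11, through 7.66 CPM in replicate 12, to 12.0, 12.3 and 13.3 CPM in replicates 9, 13 and 10. So 4 low cows exceeded all high cows and the other two were inside the high range. The SD of log2 CPM was 0.23 in the high group and 0.87 in the low group, a difference in spread that was not tested. Group means were 4.02 CPM ± 0.667 (SD, n = 7) and 8.76 CPM ± 4.43 (SD, n = 6), from 46 to 210 counts per cow, and the log2 fold change was -1.12 (standard error 0.30), or 2.17-fold higher in the low group.

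*SEC16B* was the least expressed of the genes. In the high group it had between 0.692 CPM in replicate 5 and 2.02 CPM in replicate 6, with a median of 1.47 CPM. In the low group it had between 1.65 CPM in replicate 10 and 4.40 CPM in replicate 8, with a median of 2.78 CPM. Again 4 of 6 low cows were above every high cow, but here replicates 10 and 11 were the ones inside the high range. The counts behind these values were between 13 and 115, so counting error weighs more on *SEC16B* than on the other genes. Means were 1.33 CPM ± 0.501 (SD, n = 7) and 2.90 CPM ± 1.15 (SD, n = 6). The log2 fold change was -1.13 (standard error 0.32), or 2.19-fold higher expression in the low group.

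*ADGRE1* was the most expressed, at 697 to 3153 counts per cow. The high cows ran from 33.3 CPM in replicate 7 to 93.2 CPM in replicate 1 (median 56.7 CPM), and the low cows from 81.9 CPM in replicate 10 to 199 CPM in replicate 12 (median 93.2 CPM). High replicates 1 and 2 reached the level of the low group, so only 3 of 6 low cows were above all high cows. The means were 62.2 CPM ± 22.5 (SD, n = 7) and 113 CPM ± 44.3 (SD, n = 6). The log2 fold change was -0.85 (standard error 0.25), or 1.81-fold higher expression in the low group.

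**Figure D1:**
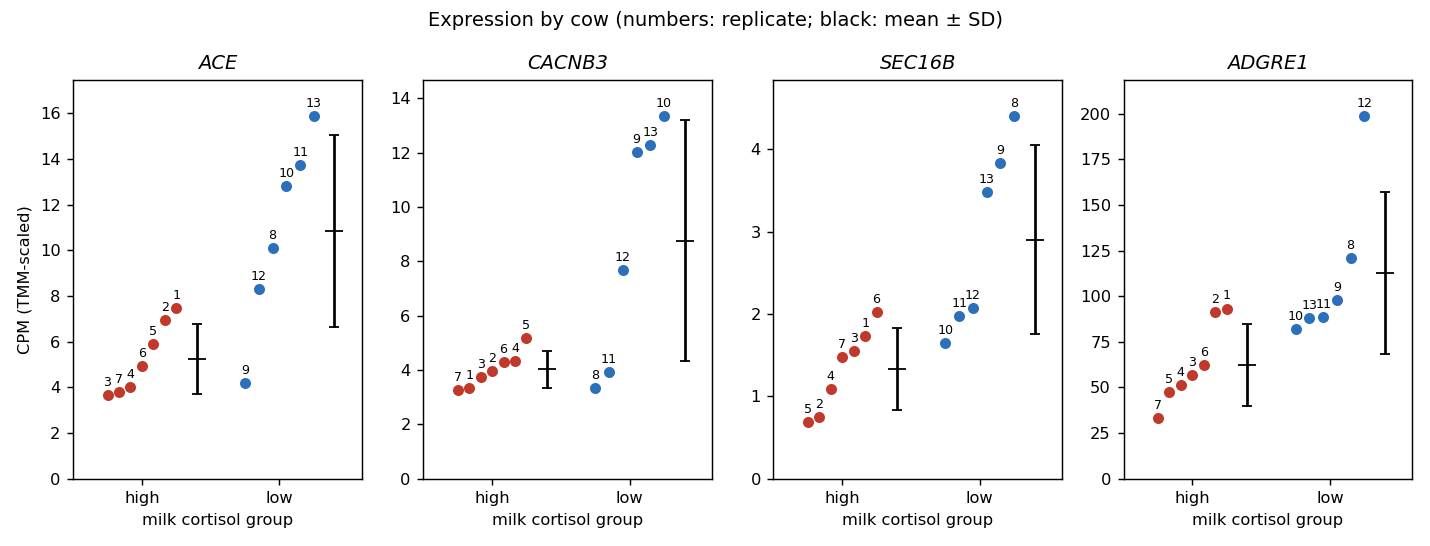
Expression of the 4 genes in CPM (vertical axis, from 0, a separate scale per gene) in each cow of the high (red) and low (blue) milk cortisol group, with the replicate number above each point and the mean ± SD in black. High cows sit low for every gene, *CACNB3* of the low group is spread from 3.33 to 13.3 CPM, and *ADGRE1* overlaps through high replicates 1 and 2.

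These group differences chose the genes and are given as a description, with no test. In the same fit over all genes, edgeR's quasi-likelihood test with Benjamini-Hochberg adjustment called 0 of 11033 genes at an adjusted p of 0.05 (0%), and 231 genes (2.09%) had an unadjusted p below 0.05, among them 128 (1.16%) lower in the high group. DESeq2 and limma-voom called 0 of the same genes. From the most negative log2 fold change, *SEC16B*, *CACNB3*, *ACE* and *ADGRE1* held ranks 12, 14, 19 and 40 of 11033. Over all genes the median log2 fold change was 0.01 and 46.7% were lower in the high group.

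Per kilobase of counted exon, expression over the 13 cows averaged 24.1 CPM for *ADGRE1*, 2.30 CPM for *CACNB3*, 2.09 CPM for *ACE* and 0.525 CPM for *SEC16B*. The ranges of *CACNB3* and *ACE* on this scale, 1.21 to 4.94 and 0.979 to 4.25 CPM per kilobase, overlapped, so these neighbours in the order did not differ beyond their spread. All 4 genes varied more between cows of a group than most genes. The SD of log2 CPM within groups was 0.61 for *CACNB3*, 0.56 for *SEC16B*, 0.55 for *ACE* and 0.50 for *ADGRE1*, against a median of 0.31 over all genes. Among the 500 genes nearest in expression level, the share with a smaller SD was 95.4% for *ADGRE1*, 81.2% for *CACNB3*, 80.2% for *ACE* and 53.2% for *SEC16B*. The spread of *SEC16B* was therefore close to the middle of genes of its own level.

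The next question was whether the 4 genes vary together from cow to cow. Without regard to group, the 6 pairs correlated at r = 0.33 to 0.55, but a shared difference between the groups gives such values by itself, and that difference chose the genes. Log2 CPM was therefore centred on the mean of each group. Within groups no pair was correlated beyond the test's threshold, with r between -0.32 and 0.16 over 13 cows. Pearson's r (and Spearman's rho) was -0.13 (0.01) for *ACE* and *CACNB3*, -0.32 (-0.22) for *ACE* and *SEC16B*, and 0.16 (0.03) for *ACE* and *ADGRE1*. It was -0.22 (-0.26) for *CACNB3* and *SEC16B*, -0.18 (-0.34) for *CACNB3* and *ADGRE1*, and 0.00 (0.36) for *SEC16B* and *ADGRE1*. None of the 6 pairs passed a within-group permutation test (two-sided, 100000 resamples). The p of r was 0.809, 0.321, 0.602, 0.478, 0.644 and 0.991 by permutation in the order given, and the p of rho 0.980, 0.489, 0.937, 0.424, 0.278 and 0.242, with Benjamini-Hochberg adjusted values over the 6 pairs of at least 0.966 for r and 0.734 for rho. Without the 2 cows farthest from the median of the first gene of the pair, r was between -0.34 and 0.25.

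In edgeR fits with group and the log2 CPM of 1 of the genes as terms, 0 of 12 directed associations among the 4 genes passed, where 0 of 11032 genes (0%) did in each of the 4 fits. The slopes were between -0.28 (standard error 0.34) for *CACNB3* on *ADGRE1* and 0.16 (standard error 0.31) for *ACE* on *ADGRE1*, in log2 units per log2 unit. With standard errors of 0.24 to 0.37 for the 12 slopes, moderate associations in either direction were not detectable. The pair with the largest r in a single group was *ACE* and *ADGRE1* in the high cows, where r was 0.77 (exact permutation p 0.0476, n = 7, not adjusted), while in the low cows r was -0.32 (exact permutation p 0.508, n = 6). The difference between these values was not tested, and 12 such values were computed within single groups.

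Low cows were not alike in which of the genes stood above every high cow. This is a description only, as it uses the group difference that chose the genes. The share of all genes with such positions was not computed. Replicate 12 was above every high cow in all 4 genes, replicates 8, 9 and 13 in 3 of them, replicate 10 in 2 and replicate 11 in 1. Replicate 8 lacked *CACNB3*, replicate 9 lacked *ACE* and replicate 13 lacked *ADGRE1*. Replicate 10 was above in *ACE* and *CACNB3*, and replicate 11 in *ACE*. Within the low group the top cow was replicate 13 for *ACE*, 10 for *CACNB3*, 8 for *SEC16B* and 12 for *ADGRE1*.

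**Figure D2:**
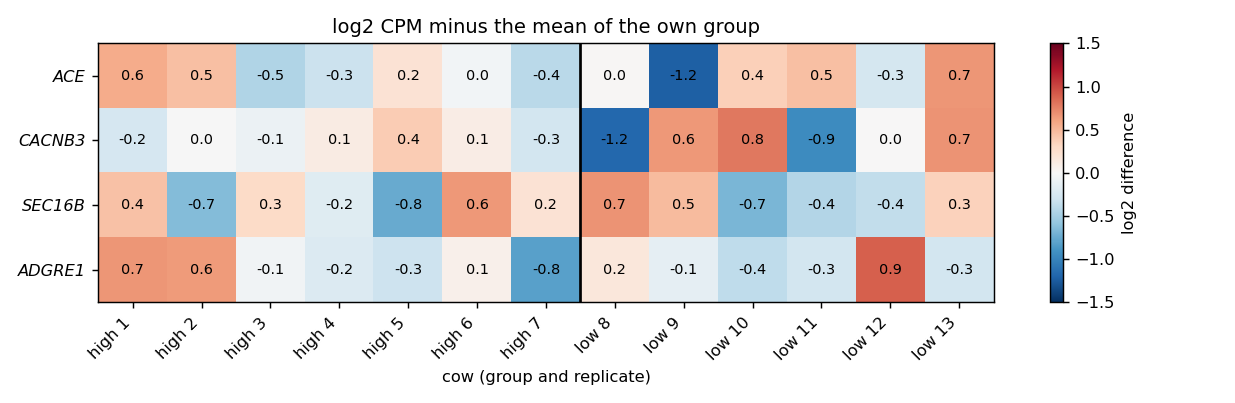
Log2 CPM of the 4 genes minus the mean of the cow's own group (colour and printed value, log2 units) in 13 cows, with the high group left and the low group right of the line. No column is of 1 colour throughout the low group, where low replicate 9 is the lowest for *ACE*, 8 for *CACNB3* and 10 for *SEC16B* and *ADGRE1*.

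Marker genes of blood cells and of the interferon response were then set beside the 4 genes. The score of a list in a cow is the mean of log2 CPM over its tested genes, each scaled to mean 0 and SD 1 over the cows. The score itself was then scaled to mean 0 and SD 1, so 1 unit of score is 1 SD over the cows, and 14 lists gave 56 relations with the 4 genes. Summed expression over the cows was 4459 to 8567 CPM for neutrophil genes (10 of 16 listed were counted) and 3696 to 5533 CPM for T cell genes. These sums were not compared with other blood data. In bulk blood, fewer cells of a type and less RNA per cell cannot be told apart. By edgeR, 0 of the 4 genes were called with any of the 14 scores at an adjusted p of 0.05, while the share of all genes called was 10.5% for the basophil and mast cell score, 0.662% for interferon, 0.499% for proliferation, 0.29% for eosinophil, 0.109% for B cell, 0.0272% for T cell and glucocorticoid response, 0.0181% for plasma cell and erythroid, 0.00906% for platelet and 0% for neutrophil, monocyte, dendritic cell and cytotoxic and NK scores. Of the 56 group-centred correlations, 3 had an unadjusted permutation p of r below 0.05 and 0 passed adjustment, while by rho 1 had an unadjusted p below 0.05 and also passed adjustment. That one is *SEC16B* with the platelet list.

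**Figure D3:**
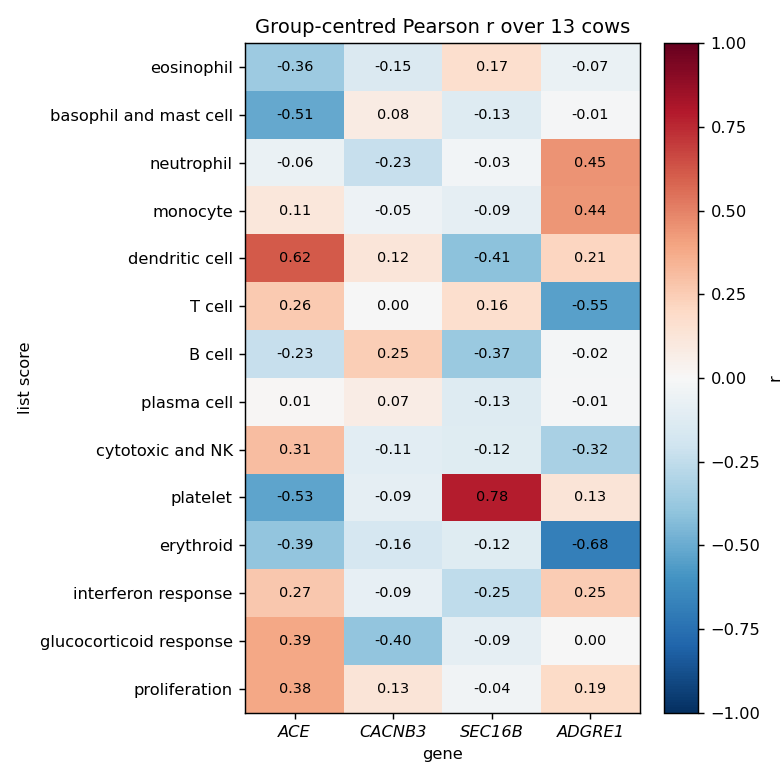
Pearson's r over 13 cows between each of the 4 genes (columns) and the scores of 14 gene lists (rows), after centring on the group means, with blue for negative and red for positive r. The values farthest from 0 are 0.78 for *SEC16B* and platelet genes, -0.68 for *ADGRE1* and erythroid genes and 0.62 for *ACE* and dendritic cell genes, and the column of *CACNB3* stays between -0.40 and 0.25.

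*SEC16B* was higher in cows with higher platelet genes, in both groups. Across the 13 cows r was 0.78 (permutation p 0.00126, adjusted 0.0706 over 56 relations) and rho was 0.86 (permutation p 6.3e-04, adjusted 0.0353). Within the high group r was 0.80 (exact permutation p 0.0300, n = 7), within the low group 0.84 (exact permutation p 0.0347, n = 6), and without low replicates 8 and 9, the cows farthest out on the platelet score, 0.74. Low replicates 8 and 9 had both the highest platelet scores (1.62 and 2.05) and the highest *SEC16B* (4.40 and 3.83 CPM), and high replicate 2 had the lowest platelet score of its group beside 0.754 CPM. In the edgeR fit the slope was 0.43 log2 units per unit of score (standard error 0.13, unadjusted p 0.00559, rank 32 of 11033 genes), but its adjusted p was 1, in a fit that called 1 gene of 11033 (0.00906%). The slope lay between 0.39 and 0.47 when any 1 cow was left out. The call thus differs by test: rho passed the threshold, and r and edgeR did not.

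All 8 of the platelet genes tested correlated positively with *SEC16B* within groups, with a median of 0.68 against 0.01 over all genes. Of the 8, 6 were above 0.5, against 1.61% of all genes. The genes shown here were chosen after their values were seen. They include *GP9*, a subunit of the platelet von Willebrand factor receptor (r = 0.79), *TREML1*, a receptor of platelet granules (0.75), *ITGA2B*, the alpha chain of the fibrinogen receptor (0.72), and *SELP*, P-selectin (0.67). *PPBP*, a platelet chemokine, *GP1BA* and *TUBB1*, the tubulin of platelets, had r of 0.52, 0.45 and 0.36. *PF4*, *GP6* and *ITGB3* of the list were not analysed here. Summed over the list, platelet expression was 286 to 543 CPM in the high group and 278 to 693 CPM in the low group. A negative log2 fold change was found for 8 of 8 genes (median -0.34), against 46.7% of all genes. By edgeR, 0 of them had an unadjusted p below 0.05 (background 2.09%). With the platelet score in the fit of high against low cortisol, the log2 fold change of *SEC16B* was -0.96.

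The most negative r with a list was that of *ADGRE1* with erythroid genes, and it did not pass adjustment. Over the 13 cows r was -0.68 (permutation p 0.0150, adjusted 0.420) and rho -0.49 (permutation p 0.103, adjusted 0.927). In the high group r was -0.86 (exact permutation p 0.0147, n = 7) and in the low group -0.31 (exact permutation p 0.592, n = 6). High replicate 7 had the highest erythroid score (2.44) and the lowest *ADGRE1* (33.3 CPM), and high replicate 1 the lowest erythroid score of its group (-0.83) and the highest *ADGRE1* of its group (93.2 CPM). Without both of these cows r was -0.39, so its size depends on them. With any 1 cow left out, the edgeR slope on the erythroid score lay between -0.48 and -0.31. The edgeR slope was -0.42 (standard error 0.12, unadjusted p 0.0032, rank 10 of 11033, adjusted p 1), and -0.31 without high replicate 7, in a fit that called 2 genes (0.0181%).

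Of the 8 erythroid genes tested, 4 had r below -0.5 with *ADGRE1*, against 2.65% of all genes. They were the haemoglobin genes *HBM* (-0.74), *HBG* (-0.73) and *HBB* (-0.67), and *EPB42*, a protein of the red cell membrane (-0.67). They too were chosen after their values were seen. *HBQ1*, another haemoglobin gene, had r = 0.05. Erythroid genes also lay higher in the high group, with a median log2 fold change of 0.86. Of these genes, 7 of 8 were higher in the high group, while 46.7% of all genes were lower in it. By edgeR, 5 of 8 erythroid genes had an unadjusted p below 0.05 (background 2.09%). Their summed expression was 394 to 8528 CPM in the high group and 179 to 652 CPM in the low group. Of the list, *AHSP*, *RHAG*, *HEMGN* and *SLC4A1* had at most 13, 14, 26 and 48 counts. The haemoglobin share is that of *HBB*, *HBG*, *HBM* and *HBQ1* together in the counts on named genes. It was 0.0282% to 0.815% in a high cow and 0.0114% to 0.0552% in a low cow.

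With the haemoglobin share as a covariate, the log2 fold change of *ADGRE1* was -0.41 (standard error 0.25) in place of -0.85, and that of *ACE* -0.66 (standard error 0.32) in place of -1.05. For *CACNB3* and *SEC16B* it was -0.98 (standard error 0.44) and -1.08 (standard error 0.44). The erythroid score as a covariate, an alternative added after the data were seen, gave -0.46 (standard error 0.23) for *ADGRE1*. Both covariates differ between the groups, so they also take up part of the contrast itself, and the part of red cell RNA in the group difference cannot be told apart from it.

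**Figure D4:**
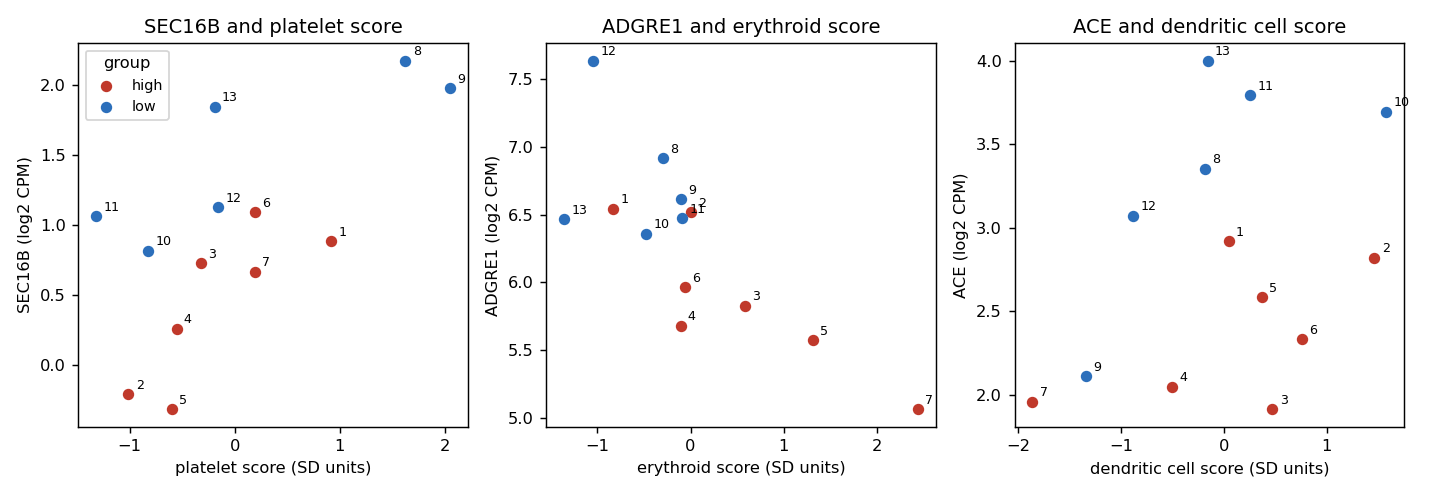
Log2 CPM of *SEC16B*, *ADGRE1* and *ACE* (vertical axes) against the platelet, erythroid and dendritic cell score of the same cow (horizontal axes, scores scaled to SD 1 over the 13 cows), with red for high and blue for low cows and the replicate number beside each point. *SEC16B* is higher where the platelet score is higher in both groups (r = 0.80 and 0.84), and high replicate 7 has the highest erythroid score (2.44).

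*ACE* had its highest r with the dendritic cell list, 0.62 (permutation p 0.0319, adjusted 0.595), with a rho of 0.51 (permutation p 0.0921, adjusted 0.927). It was 0.55 in the high group (exact permutation p 0.204, n = 7), 0.71 in the low group (exact permutation p 0.128, n = 6) and 0.63 without the 2 cows farthest out. The edgeR slope was 0.32 (standard error 0.13, adjusted p 0.732), and 0.20 without low replicate 9. Of the 6 dendritic cell genes tested, 5 had a positive r with *ACE*, led by *CLEC10A*, a lectin of conventional dendritic cells (0.62), while *FLT3*, the receptor that drives dendritic cell development, had -0.31. *CLEC9A* had at most 17 counts and did not pass the filter. The list summed to 46.0 to 78.0 CPM in the high group and 53.2 to 75.8 CPM in the low group. *ACE* and platelet genes had r = -0.53 (permutation p 0.125), with 0 of 8 platelet genes positive. The edgeR slope of -0.24 was -0.37 without high replicate 1 and -0.056 without low replicate 9, so its size rests on the latter cow. *ACE* and basophil and mast cell genes had r = -0.51 (permutation p 0.124), and without low replicates 9 and 13 it was -0.07.

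*ADGRE1* was negative with 13 of 13 T cell genes, with a median r of -0.36 against -0.01 over all genes. Of the 13, 3 were below -0.5, against 2.65% of all genes. Chosen after their values were seen, *CD28* had -0.56, *CD3D* -0.54 and *CD6* -0.13. Genes of a list can move together, so such counts do not add up as separate evidence. The T cell score itself gave r = -0.55 with *ADGRE1* (permutation p 0.0614, adjusted 0.860) and an edgeR slope of -0.30 (standard error 0.11, adjusted p 0.716). For *ADGRE1*, r was 0.45 with the neutrophil list (permutation p 0.158) and 0.44 with the monocyte list (permutation p 0.166), and neither passed. The monocyte value pools groups of opposite sign, 0.77 in the high group and -0.44 in the low group. Without high replicates 2 and 7 the neutrophil value was 0.03. The eosinophil list, a further cell type in which this receptor is known from other mammals, gave r = -0.07 with *ADGRE1*. The basophil and mast cell list gave r = -0.01. *CACNB3* passed with no list, with r between -0.40 for glucocorticoid response genes (permutation p 0.339) and 0.25 for B cell genes. Scores of proliferation, plasma cell and cytotoxic and NK genes gave r between -0.32 and 0.38 with the 4 genes.

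Interferon response genes are induced by viral and other innate signals, and 23 of the 29 listed were tested. All 23 had a negative log2 fold change (median -0.62), 5 of them at an unadjusted p below 0.05 and 0 after adjustment, where 46.7% of all genes were lower and 2.09% had such a p. Ignoring the groups, the interferon score correlated with *ACE* at r = 0.50, with *ADGRE1* at 0.48, with *CACNB3* at 0.24 and with *SEC16B* at 0.19. Centred on the groups these values became 0.27 (permutation p 0.429), 0.25 (permutation p 0.425), -0.09 and -0.25 (permutation p 0.433). The value of -0.09 for *CACNB3* pools groups of opposite sign, and rho was 0.09. Its r was 0.75 within the high group (exact permutation p 0.0415, not adjusted) and -0.33 within the low group (exact permutation p 0.490). Whether the groups differ in this relation was not tested. *ACE* and *ADGRE1* each had a positive r with 22 of 23 interferon genes, but with no gene above 0.5, and *SEC16B* had a negative r with all 23. Genes of this list move together, so such counts do not add up as separate evidence. The edgeR slopes were 0.09 (standard error 0.17) for *ACE*, 0.16 (0.16) for *ADGRE1*, -0.02 (0.19) for *CACNB3* and -0.09 (0.19) for *SEC16B*, with 0 passing, in a fit that called 73 genes (0.662%). The sign turned to -0.014 for *ACE* without low replicate 9, to 0.086 for *SEC16B* without high replicate 5, and to between 0.0088 and 0.17 for *CACNB3* without low replicate 8, 9 or 13. For *ADGRE1* it kept its sign, at 0.36 without high replicate 5, 0.099 without high replicate 7 and 0.072 without low replicate 12. Low replicate 8 had the highest interferon score (1.97) with the lowest *CACNB3* of its group (3.33 CPM). With the interferon score in the fit, the group differences of the 4 genes kept their sign.

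**Figure D5:**
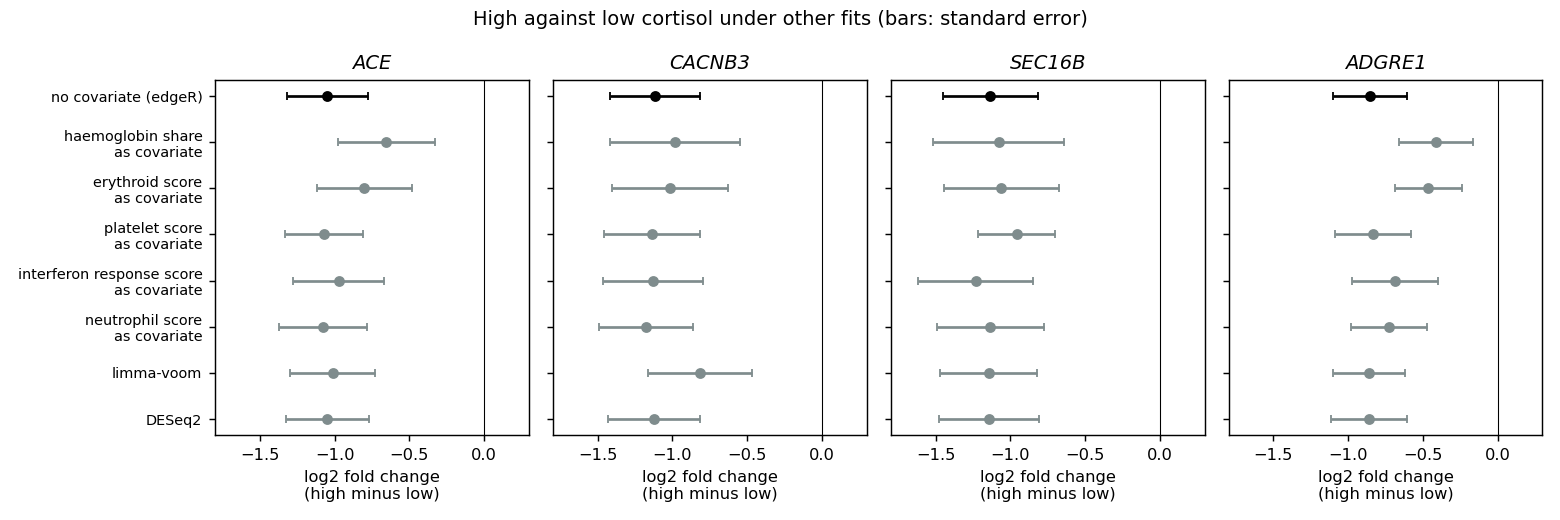
Log2 fold change of high against low cortisol (horizontal axis, with its standard error) for the 4 genes without a covariate (black) and under other fits (grey, rows). All points are below 0, and the haemoglobin share and the erythroid score bring *ADGRE1* from -0.85 to -0.41 and -0.46.

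For each gene the 5 genes of most similar pattern were those with the highest group-centred r over 13 cows, out of 11032, given as a description. For *ACE* they were *MAPK1IP1L* (0.91), *DUSP5*, a phosphatase of the MAP kinase ERK (0.83), *SKA3*, a kinetochore protein (0.83), *CDC42EP4* (0.82) and *NRXN2* (0.81). For *CACNB3* they were *TERF2IP*, a telomere protein (0.83), *DGKH*, a diacylglycerol kinase (0.82), *SPON1* (0.76), *MED31* of the Mediator complex (0.76) and *FUCA1*, a lysosomal fucosidase (0.75). For *SEC16B* they were *FBXL2* (0.86), *GP5* (0.83), *TRAV3*, a T cell receptor variable segment (0.79), *GP9* (0.79) and *SARDH* (0.78). *GP5* and *GP9* are subunits of the same platelet receptor complex, and *GP5* was not on the platelet list. *GP5* rests on 2 to 69 counts per cow and *GP9* on 20 to 229. For *ADGRE1* they were *PDXK*, pyridoxal kinase (0.82), *OLFM1* (0.78), *RGS6* (0.76), *SCN4B* (0.76) and *NRG1* (0.74). Counts per cow were also low for *DGKH* (3 to 21), *TRAV3* (3 to 26), *SARDH* (4 to 20), *RGS6* (2 to 67) and *OLFM1* (4 to 86).

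The 4 sets of 5 had no gene in common, and none held another of the 4 genes. Fold changes of the 5 genes nearest to *ACE* were small, between -0.28 and -0.08 on the log2 scale. *OLFM1*, next to *ADGRE1* by pattern within groups, had a log2 fold change of 1.19 (edgeR, unadjusted p 0.0503), opposite to that of *ADGRE1*. The value for *OLFM1* rests on 4 to 86 counts per cow. The number of genes with r above 0.7 was 61 for *ACE*, 15 for *ADGRE1*, 13 for *SEC16B* and 8 for *CACNB3*. When likeness was ranked by rho, 4 of the 5 genes stayed for *SEC16B* and 2 of 5 for each of the others.

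None of the tested genes of the same pathways passed the test of the group difference. Of 22 partners of *ACE* in angiotensin and peptide processing, 9 were tested, 5 of them lower and 4 higher in the high group, with 0 passing (median log2 fold change -0.14, against 0.01 for all genes). *CTSA*, a lysosomal carboxypeptidase that also makes angiotensin peptides, was the highest, with 298 CPM ± 72.4 (SD, n = 7) and 294 CPM ± 60.6 (SD, n = 6). Of the list, 6 genes had 0 counts in all cows, where 3 counts would be at most 0.272 CPM.

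Of 25 other subunits of voltage-gated calcium channels, 9 were tested, 4 lower and 5 higher, with 0 passing and a median log2 fold change of 0.01. *CACNA1S*, a pore-forming subunit best known from skeletal muscle, was the highest, with 14.4 CPM ± 5.70 (SD, n = 7) and 15.02 CPM ± 3.92 (SD, n = 6). The beta subunits *CACNB1* and *CACNB2*, which share the role of *CACNB3*, had log2 fold changes of -0.01 (standard error 0.17) and -0.19 (standard error 0.25). *CACNB1* had 8.15 CPM ± 1.53 (SD, n = 7) and 8.25 CPM ± 1.67 (SD, n = 6), so its group means differed by less than the spread between cows.

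Of 17 genes of the COPII coat and its exit sites, 16 were tested, 12 lower and 4 higher in the high group. Of all genes, 46.7% were lower. In this list 0 passed and the median log2 fold change was -0.05, against 0.01 for all genes. The list as a whole was not tested. *MIA3*, which loads large cargo such as collagen, was the highest, with 219 CPM ± 20.01 (SD, n = 7) and 227 CPM ± 13.2 (SD, n = 6). *SEC16A*, the other Sec16 scaffold, had 145 CPM ± 18.7 (SD, n = 7) and 138 CPM ± 9.61 (SD, n = 6), and its log2 fold change was 0.08 (standard error 0.10). Per kilobase it averaged 19.8 CPM over the 13 cows, against 0.525 CPM for *SEC16B*.

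Of 27 other adhesion G protein-coupled receptors, 11 were tested, 8 lower and 3 higher in the high group (median -0.09). Of all genes, 46.7% were lower, and the list as a whole was not tested. An unadjusted p below 0.05 was found for 3 of the 11 receptors (background 2.09%) and 0 passed adjustment (edgeR, adjusted p 0.998 each). These were *ADGRG3*, a receptor of granulocytes, whose log2 fold change was -0.54 (standard error 0.24), *ADGRG5* with 0.40 (standard error 0.16) and *ADGRA3* with 1.13 (standard error 0.51). *ADGRE5*, which is CD97 of leukocytes and belongs to the same subfamily as *ADGRE1*, was the highest, with 1640 CPM ± 467 (SD, n = 7) and 2007 CPM ± 739 (SD, n = 6). Its log2 fold change was -0.29 (standard error 0.22), and that of *ADGRE3* was -0.31 (standard error 0.22). Low replicate 12, the top cow for *ADGRE1* with 199 CPM, was the lowest of the low group for both *ADGRE5* (1380 CPM) and *ADGRE3* (361 CPM).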

How the data were processed

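RNA-seq gene counts of whole blood from 13 cows (7 high, 6 low milk cortisol, groups from the sample labels) were used. The authors deposited raw counts, whole numbers of reads per gene name without normalization, in tables whose headers name featureCounts 1.4.6-p3 and Ensembl release 88 gene models of UMD3.1. The headers also carry animal numbers unlike those of the tables, and a folder called goat, so the headers do not bear out which cow a table holds, and every high against low value rests on the sample labels alone. The submitters' processing notes name STAR 2.7.3, Subread 1.6.5 and ARS-UCD1.2. The unnamed row (13.9% to 16.7% of counts) was left out.

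After TMM normalization, expression was expressed as CPM and as log2 CPM with a prior count of 2. Models were fitted with edgeR 4.0.16 (robust quasi-likelihood test, filterByExpr with minimum count 10 and minimum total 15, Benjamini-Hochberg adjustment over all genes tested) in R 4.3.3, first with group alone and then with group plus the log2 CPM of a gene or a list score. Standard errors are the coefficient divided by the square root of F. Correlations are of log2 CPM centred on group means, with within-group permutation p. The study used DESeq2, and here DESeq2 1.42.0 and limma-voom (limma 3.58.1) were alternatives. On counts simulated for these cows, with 200 genes changed, the group test (10922 genes) recovered 69.0% of genes changed by 1 log2 unit, and the score test (10924 genes) 95.5% of genes with a slope of 1 log2 unit. The simulated score was drawn at random and was not a list score, and genes were drawn independently. The largest slope of the 4 genes on a list score was 0.43, and slopes of that size were not simulated. These shares therefore do not give the power for the relations of the 4 genes.

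The 4 genes and all gene lists were chosen with earlier results of these data known. Named genes are the 4 genes, the 5 most alike to each by r, pathway genes at an unadjusted p below 0.05 or with the highest mean CPM, and neighbours on the chromosome. Others are marked as chosen after their values were seen or are further members of a list with a stated role. Labels do not give more than 1 sample per cow. No protein or promoter sequences were used here. Results for certain genes are not reported here.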

Additional observations from a re-analysis of the deposited data

How the results depend on the processing

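The log2 fold changes of the 4 genes stayed negative under all alternatives, from -1.13 to -0.66 for *ACE*, -1.18 to -0.82 for *CACNB3*, -1.23 to -0.96 for *SEC16B* and -0.96 to -0.41 for *ADGRE1*. With 1 cow left out they ran from -1.21 to -0.91, -1.28 to -0.95, -1.26 to -0.96 and -0.98 to -0.62. Adjusted calls stayed at 0 for the group and for associations of the 4 genes. Genes at an unadjusted p below 0.05 numbered 414 without a filter (14377 tested), 120 with the haemoglobin share as covariate, and 191 (without high replicate 7) to 373 (without high replicate 2) with 1 cow left out, also 363 without high replicate 5. Ranking likeness by rho kept 10 of 20 nearest genes.

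No slope that turned sign passed adjustment, and the cause was not tested. That of *ADGRE1* on *ACE* was -0.26 with the haemoglobin covariate, and that of *ADGRE1* on *SEC16B* 0.017 with limma-voom. Without the group term, slopes were 0.41 (*CACNB3* on *ACE*), 0.35 (*SEC16B* on *ACE*), 0.29 (*SEC16B* on *CACNB3*), 0.27 (*ADGRE1* on *CACNB3*), 0.40 (*ADGRE1* on *SEC16B*), and 0.24 for *CACNB3* and 0.24 for *SEC16B* on the interferon score. With 1 cow left out, slopes ran from -0.26 to 0.37 (*CACNB3* on *ACE*), -0.39 to 0.16 (*SEC16B* on *CACNB3*), -0.17 to 0.17 (*ADGRE1* on *SEC16B*), and on the interferon score from -0.014 to 0.19 (*ACE*), -0.24 to 0.17 (*CACNB3*) and -0.37 to 0.086 (*SEC16B*). *SEC16B* on the platelet score stayed at 0.39 to 0.49. No paired analysis was possible because the groups share no replicate numbers. Depth limits *SEC16B* most, at 13 to 115 counts per cow.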

Other observations

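Computed within single groups, 8 of 112 relations between the 4 genes and the list scores had an unadjusted exact permutation p below 0.05. These include both groups of *SEC16B* with platelet genes. Among 112 relations some such values arise without any relation, and no adjustment over the 112 was made. *CACNB3*, which passed with no list over all cows, had r = -0.81 with the neutrophil score within the low group (exact permutation p 0.0139, n = 6) and 0.18 within the high group (exact permutation p 0.697, n = 7). The difference between groups was not tested. *ADGRE1* had r = 0.77 with the monocyte score within the high group (exact permutation p 0.0331, n = 7) and -0.44 within the low group (exact permutation p 0.436, n = 6), again without a test of the difference.

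Of 32 comparisons by Dixon's criterion, 0 went beyond the limit. They covered the highest and the lowest cow of each group for the 4 genes and the platelet, erythroid, dendritic cell and T cell scores.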
